A study of Caenorhabditis elegans with 28 samples.

Results

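LAG-1 occupancy was described from the peak lists of 4 chromatin immunoprecipitation (ChIP-seq) libraries of Caenorhabditis elegans, set against the peak lists of 6 immunoprecipitates from tagged GFP control animals. The libraries were chosen by their titles, LAG-1 a, b, c and e against Flag control a, b and c and Myc control a, c and d. The LAG-1 lists held 5088 peaks of 28805 in the 14 immunoprecipitates of the series, and the control lists held 14284. LAG-1 lists held 505, 1533, 1085 and 1965 peaks in a, b, c and e. The Flag control lists held 127, 45 and 83 peaks, and the Myc control lists 8078, 5824 and 127.

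LAG-1 is the worm member of the CSL family of DNA-binding proteins, the factors through which Notch receptors act on transcription. When a Notch receptor is activated, its intracellular part is released, enters the nucleus and joins LAG-1 and a coactivator on DNA. In the C. elegans germline the receptor GLP-1 acts through LAG-1 to keep germline stem cells in their undifferentiated state, and LAG-1 also serves Notch signalling in somatic tissues.

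All 10 libraries came from whole L4 larvae grown at 20 °C, from 4 mg/mL extract and 10 µg of antibody. The LAG-1 libraries came from strain pJK1689, which carries LAG-1 with an N-terminal tag, and the controls from strain pJK1728, which by the series design carries Flag- and Myc-tagged GFP. The labels do not give the promoter of either transgene, and whole animals were used, so germline and somatic occupancy cannot be told apart. The labels give a Myc antibody for LAG-1 and the M2 Flag antibody for both the Flag-titled and the Myc-titled controls, so antibody, strain and tagged protein differ together between LAG-1 and the controls. Their parts cannot be told apart, and which control group matches LAG-1 is unclear. The series design calls the replicates biological.

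Sequencing depth overlapped between the groups, with 9.37 to 19.8 M tags in the LAG-1 libraries and 3.13 to 16.8 M in the controls. The caller's peak size did not overlap, at 291 to 331 bp for LAG-1 and 156 to 272 bp for controls, and the authors set a false discovery rate of 0.01 in calling LAG-1 peaks and of 0.001 in calling control peaks. Myc controls a and c stood apart by list length, and LAG-1 c stood apart among the LAG-1 libraries. Its clonal fold, which is high where tags pile up on few positions, had a median of 1.22, against 0.88, 0.83 and 0.88 in LAG-1 a, b and e and 1.06 to 1.39 in the controls. Results that turned with LAG-1 c are given with and without it.

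The peaks of all 10 lists were merged into 16621 regions, of which 3130 held a LAG-1 peak. Of these, 2633 (84.1%) held no control peak. From the control side, 13491 of 13988 control regions held no LAG-1 peak. The share without overlap that list length alone gives was not computed. Regions where 3 or more LAG-1 libraries and no control had a peak numbered 372, or 2.24% of all regions. The mirror image, at least 3 controls and no LAG-1 library, was found at 1 region, 0.00602% of all regions, but 4 of the 6 control lists held at most 127 peaks, so few regions could meet it. With the 45 best peaks of every list, the 372 regions became 21. Fisher's exact test over libraries gave an unadjusted p under 0.05 at 433 regions more frequent with LAG-1, 2.61% of those tested. The 372 regions are among these 433. The test gave 0 regions more frequent with controls, where a call needs a peak in most of the 6 control lists. The adjusted p was under 0.05 at 0 regions in either direction, an outcome fixed by the design. The smallest exact p that 4 against 6 libraries allow, 0.00476, adjusts here to 0.660. It needs a peak in every library of 1 group and none of the other. LAG-1 a, with 505 peaks, and the short control lists hold too few peaks for enough such regions.

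Regions that recurred in more LAG-1 libraries also held a control peak more frequently. Of the 1908 regions found in 1 LAG-1 library, 11.1% held a control peak. The share was 18.4% of 692 regions in 2 libraries and 22.2% of 324 regions in 3 libraries. It was 41.7% of the 206 regions found in all 4. The merged regions were also wider where more libraries contributed, with a median of 316 bp in 1 library and 398 bp in 4, and the part of width in the overlap was not tested. Myc controls had a peak at 82 of the 86 shared regions in all 4 LAG-1 libraries, and Flag controls at 16. The Myc lists held 14029 of the 14284 control peaks and the Flag lists only 255, so the Flag share was the higher for their length. From the control side, 3.55% of the 13988 control regions held a LAG-1 peak. Among the 284 regions found in at least 2 controls, 66 (23.2%) did.

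The strength of a LAG-1 peak went with its recurrence inside every LAG-1 list. Strength was taken as the normalized tag count, the authors' number of tags in a peak per 10 M tags of the library, and each list was split into quartiles of it. In LAG-1 a, the share of peaks lying in regions of at least 3 LAG-1 libraries was 74.0% in the lowest quartile and 94.4% in the highest. In LAG-1 b it went from 14.1% to 62.1%, in LAG-1 c from 5.51% to 62.4%, and in LAG-1 e from 3.66% to 58.5%. The short list of LAG-1 a was thus mostly recurrent at every strength, while the weakest quartile of the longer lists was mostly seen in fewer than 3 libraries. The share that overlapped a control peak was also higher in the top quartile. It went from 22.0% to 50% in LAG-1 a, from 14.8% to 31.9% in b, from 9.56% to 34.3% in c and from 9.96% to 30.5% in e. These shares describe the lists and were not tested.

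**Figure D1:**
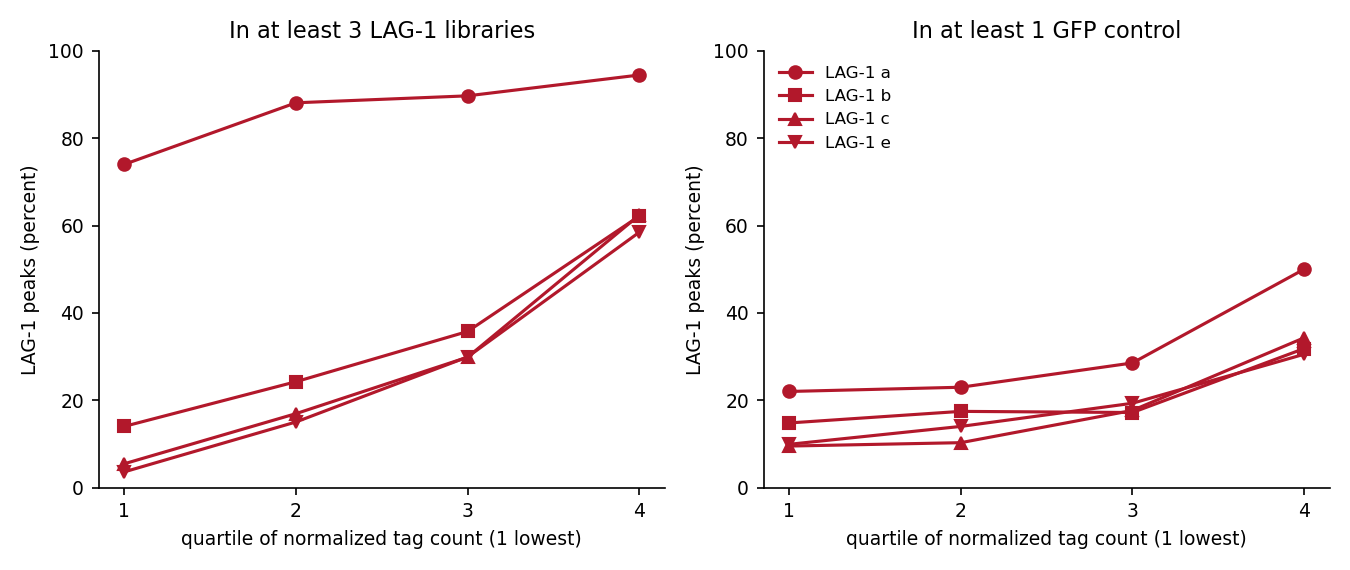
Share of LAG-1 peaks (percent) by quartile of normalized tag count within each list, 1 being the lowest, for peaks in regions of at least 3 LAG-1 libraries (left) and for peaks overlapping a GFP control peak (right). Each line is 1 LAG-1 library. Every line is higher in the top quartile than in the bottom one, ending between 58.5% and 94.4% on the left and between 30.5% and 50% on the right.

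Compared within a library, recurrent peaks (regions of at least 3 LAG-1 libraries) were stronger than peaks found in that library alone. Their median normalized tag counts were 196.5 against 144.3 in LAG-1 a, 253 against 179 in b, 172 against 125 in c and 358 against 193 in e. The difference averaged 0.173 ± 0.0640 on the log10 scale (SD, n = 4) and had the same sign in 4 of 4 libraries. The exact sign-flip permutation p was 0.125, the smallest that 4 libraries allow, and 0.250 adjusted over 4 measures. The fold over the local background, a peak's tag density against that of the surrounding 10 kb, was higher by 0.32 ± 0.25 on the log2 scale in recurrent peaks, again in 4 of 4 libraries with exact permutation p = 0.125. Their focus ratio was higher in 3 of 4 libraries, by 0.0334 ± 0.0367 on average, with exact permutation p = 0.250. LAG-1 a contributed only 19 single-library peaks, against 415, 658 and 816 in b, c and e.

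LAG-1 peaks that overlapped a control peak were likewise stronger than those that did not. Median normalized tag counts were 224.5 with and 181.4 without a control peak in LAG-1 a, 222.6 and 199.1 in b, 164.8 and 134.5 in c, and 293.6 and 221.0 in e. The mean difference was 0.0881 ± 0.0308 on the log10 scale (SD, n = 4), with exact permutation p = 0.125 and 0.167 adjusted over 4 measures. Against Flag controls alone, which overlap far fewer LAG-1 regions, the difference was 0.287 with the same exact p, and that in fold over the local background was 0.65 in place of 0.16 on the log2 scale. At the same regions the LAG-1 signal exceeded the control signal at most sites. LAG-1 had the higher normalized tag count at 296 of the 299 regions shared with Myc control a, with medians of 228 for LAG-1 and 84.4 for the control. It was higher at 212 of 222 regions shared with Myc control c, with medians of 216 and 118. Of the 22 regions shared with Flag control b, 48.9% of that control's list, LAG-1 was higher at 21, with medians of 377 and 79.1. The other controls shared few regions, and LAG-1 was higher at 10 of 13 with Flag control a, 5 of 6 with Flag control c and 9 of 11 with Myc control d. Peak size was larger in the LAG-1 lists, which adds tags to a peak, and its part in these differences was not tested at single regions. The lists also differed in level. Medians of the lowest quartile of normalized tag count were 138.4, 141.2, 101.5 and 148.4 in LAG-1 a, b, c and e. Medians of the highest quartile were 94.4 in Myc control a and 137.4 in Myc control c. For these Myc controls the counts of regions with LAG-1 higher thus follow largely from the level of the lists.

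The focus ratio measures peak shape. It is the caller's fraction of tags lying on the side of the peak centre that matches their strand, and it is high for a compact peak around a point source. The median focus ratio of the LAG-1 lists was 0.738, 0.742, 0.769 and 0.755 in a, b, c and e. Flag controls had 0.780, 0.782 and 0.761, and Myc controls 0.837, 0.830 and 0.773. LAG-1 lists were thus lower on average, with 1 overlap between the groups, Flag control c lying below LAG-1 c. The means were 0.751 ± 0.0140 (SD, n = 4) for LAG-1 and 0.794 ± 0.0317 (n = 6) for controls. The difference of -0.0428 had an exact two-sided permutation p of 0.0190, or 0.0571 after adjustment over 6 measures, and so did not pass the threshold of 0.05. Against Flag controls alone it was -0.0233 (exact permutation p = 0.114), and against Myc controls alone -0.0623 (p = 0.0571 in the exact test, the smallest that 4 against 3 libraries allow). The difference shrank to -0.0193 (exact permutation p = 0.619) among peaks at least 6-fold over input, and to -0.00883 (exact permutation p = 0.60) among the 45 best peaks of each list. Peak size did not overlap between the groups, and its part in the focus ratio was not tested.

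Very focused peaks differed more between lists than the medians did. Peaks with a focus ratio of at least 0.9 made up 0.198%, 0.196%, 8.20% and 0.509% of the LAG-1 lists a, b, c and e. They made up 10.2%, 26.7% and 1.20% of the Flag control lists and 30.7%, 27.03% and 3.94% of the Myc control lists. LAG-1 c lay above Flag control c and Myc control d, and the other LAG-1 lists lay below all 6 controls. The highest shares were in the lists with the smallest peak sizes, 163 bp in Flag control b and 156 and 202 bp in Myc controls a and c. LAG-1 c had the smallest LAG-1 peak size, 291 bp. Myc control d went the other way, with 234 bp and a lower share than Flag control a with 254 bp. The part of peak size in these shares was not tested. Control peaks that coincided with LAG-1 regions had lower median focus ratios than the rest of their own list in 6 of 6 controls. The medians were 0.728 and 0.914 in Flag control b, 0.800 and 0.838 in Myc control a, and 0.701 and 0.775 in Myc control d.

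Of the 6 measures compared between the groups, tag density was the 1 in which LAG-1 and control lists did not overlap. The median normalized tag count was 191, 205, 139 and 233 tags per 10 M in LAG-1 a, b, c and e. Flag controls had 95.4, 80.3 and 108.9, and Myc controls 73.5, 105.4 and 93.5. Every LAG-1 list lay above every control list. Mean log10 medians were 2.28 ± 0.0953 (SD, n = 4) and 1.96 ± 0.0666 (n = 6), a difference of 0.312. Its exact two-sided permutation p was 0.00952, the smallest that 4 against 6 libraries allow, and 0.0571 adjusted over 6 measures. With each median divided by the lowest value of its list the difference was 0.190 (exact permutation adjusted p = 0.0857), and among the 45 best peaks of each list it was 0.618 (adjusted p = 0.0571).

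Part of the density difference went with the caller's peak size. Per 100 bp of peak size the medians were 58.6, 64.8, 47.8 and 70.3 in LAG-1 a, b, c and e, against 37.6 to 52.2 in the 6 controls. LAG-1 c then lay below Flag control b (49.3) and Myc control c (52.2), and the groups overlapped. The log10 difference was 0.133, with exact permutation p = 0.0286 and adjusted p = 0.0857. This scaling was chosen after seeing the data. The weakest peak of each list depends on its own calling filters. It lay at 52.8 to 56.1 tags per 10 M for LAG-1 and at 28.1 to 54.3 for controls. The fold over the local background, a ratio of densities that peak size may still affect, had medians of 5.06, 5.31, 4.82 and 5.57 for LAG-1 and 4.42 to 5.45 for controls. Its log2 difference was 0.09, with exact permutation p = 0.248 and adjusted p = 0.495. Among the 45 best peaks of each list it was 0.60 (exact permutation p = 0.0286, adjusted p = 0.0571), among peaks at least 6-fold over input it was 0.01, and it was 0.06 without LAG-1 e.

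**Figure D2:**
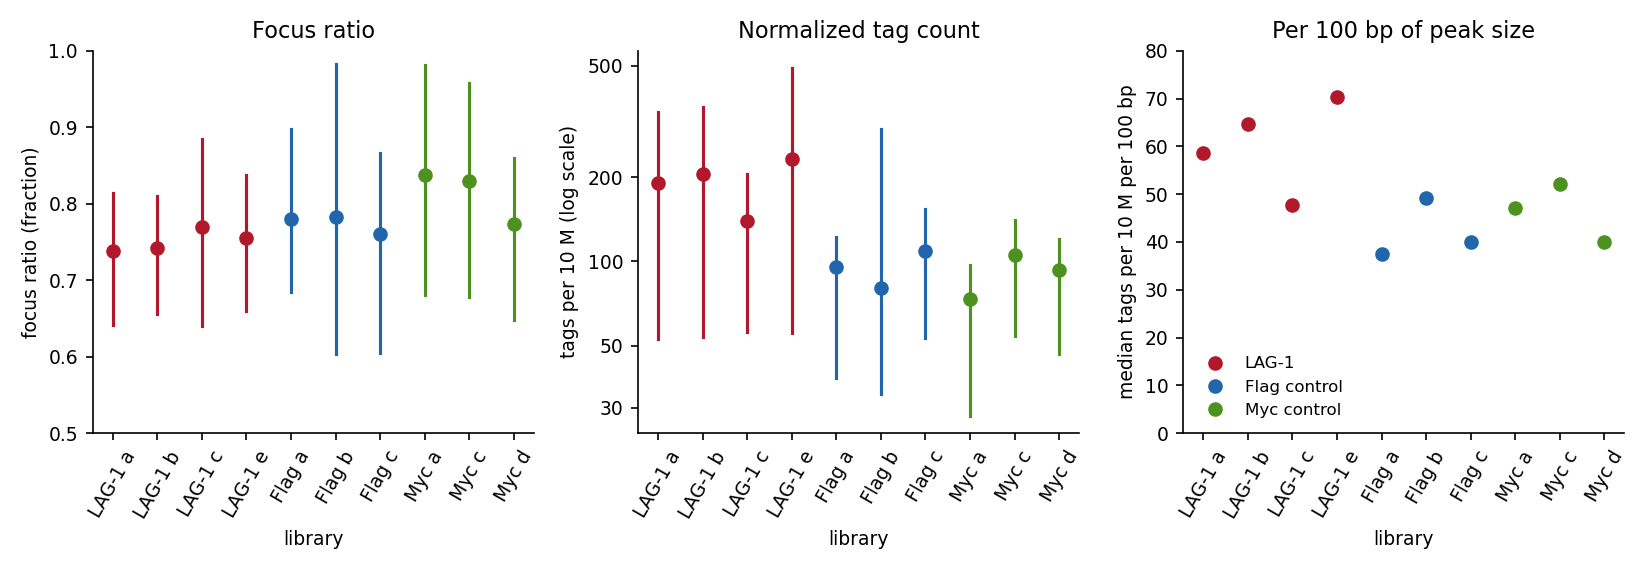
Peak shape and density in the 10 lists. Points are medians over the peaks of a library; lines run from the 10th to the 90th percentile for the focus ratio (left, fraction) and from the weakest peak to the 90th percentile for the normalized tag count (middle, tags per 10 M, log scale), and the right panel gives the median per 100 bp of peak size. LAG-1 medians of 139 to 233 lie above all controls in the middle panel, while LAG-1 c at 47.8 falls among the controls on the right.

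The upper tail of peak strength did not separate the groups. The 90th percentile of normalized tag count was 1.79, 1.73, 1.47 and 2.11 times the median in LAG-1 a, b, c and e. Flag controls had ratios of 1.29, 3.70 and 1.42, and Myc controls of 1.32, 1.33 and 1.28. The log2 difference was 0.16, with exact permutation p = 0.657 and the same value after adjustment. Flag control b, with 45 peaks, held the highest ratio, and without it the LAG-1 lists were the higher by 0.41 on the log2 scale, with an exact permutation adjusted p of 0.0476.

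Stronger and weaker LAG-1 peaks also differed in how their tags were stacked. The median clonal fold of the top quartile of normalized tag count minus that of the bottom quartile was -0.1, -0.09, -0.22 and -0.05 in LAG-1 a, b, c and e. Flag controls had -0.03, 0.245 and 0, and Myc controls 0.22, 0.38 and 0.095. Strong LAG-1 peaks thus spread their tags over relatively more positions than weak ones in 4 of 4 libraries, and the groups did not overlap. The difference between groups was -0.267, with exact permutation p = 0.00952 and adjusted p = 0.0381 over 4 measures. The measure was chosen after seeing the data. Without any single library the adjusted p of the same exact test lay above 0.05, with differences from -0.303 to -0.221. The smallest exact p-values that those designs allow, 0.0159 and 0.0238, were obtained. With the p-values of the other measures they adjusted to 0.0635 and 0.0952. Without Myc controls a and c the difference was -0.193, again with the smallest exact permutation p that its size allows, 0.0286 (adjusted p = 0.114).

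Peak centres of LAG-1 libraries coincided closely. At the 451 regions shared by LAG-1 a and b, the median distance between centres was 23 bp, which is 0.143 of the distance given by offsets spread evenly over all that let the peaks overlap. It was 47.5 bp for a and c, 30 bp for a and e, 51.5 bp for b and c, 29 bp for b and e, and 56.5 bp for c and e. The ratios to an even spread ran from 0.143 to 0.363 over these 6 pairs, and the pairs with LAG-1 c gave the 3 highest. Centres of LAG-1 and Myc control peaks lay farther apart, 47.5 to 93 bp over the 8 pairs that shared at least 50 regions, with ratios of 0.360 to 0.805. Myc controls a and c shared 222 regions with a median offset of 85 bp, a ratio of 0.950. Flag control b shared only 14 to 17 regions with each LAG-1 list, and its offsets from them, 24.5 to 34 bp with ratios of 0.198 to 0.284, lay in the range of the LAG-1 pairs. Its offset from Myc control a was 18 bp, a ratio of 0.226 over 11 regions. Between LAG-1 a and b, 54.5% of centres lay within 25 bp of each other against 7.79% for an even spread, while for Myc controls a and c the shares were 17.1% and 13.97%.

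LAG-1 regions with and without a control peak were placed with like precision. Over the 6 LAG-1 pairs, median offsets were 21 to 53 bp at regions that also held a control peak and 23 to 58 bp at the others. Pairs share libraries, so the offsets are given as a description with no test.

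**Figure D3:**
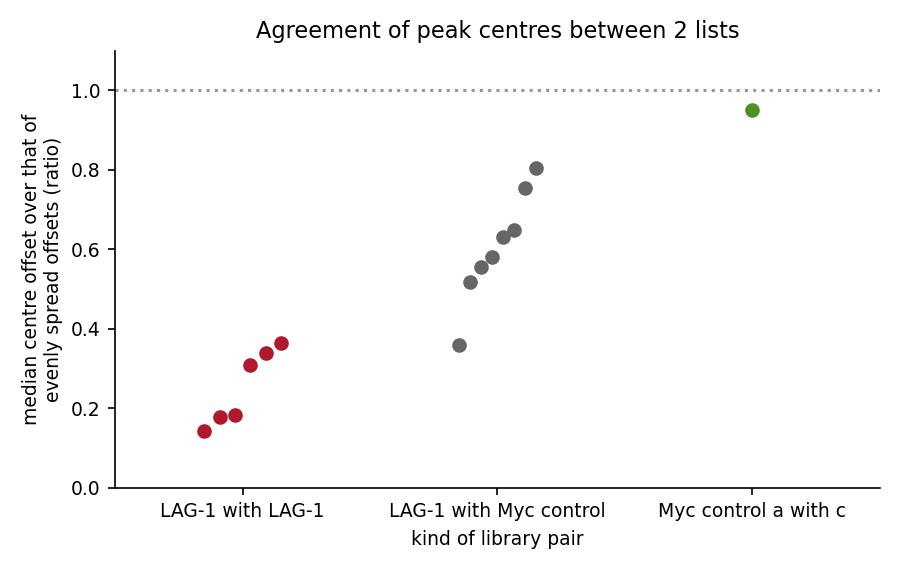
Median distance between the centres of 2 peaks in the same region, divided by the median of evenly spread offsets, for pairs of lists sharing at least 50 regions. Each point is 1 pair and the dotted line at 1 marks an even spread. LAG-1 pairs lie at 0.143 to 0.363, pairs of LAG-1 with a Myc control at 0.360 to 0.805, and the pair of Myc controls at 0.950.

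Regions are named by their ce10 coordinates. Among the 120 regions with a peak in all 4 LAG-1 libraries and in no control, the mean focus ratio ran from 0.587 to 0.877, with a median of 0.766. The strongest by rank was chromosome III from 9793659 to 9794000, with normalized tag counts of 1038.5, 1669.3, 848.9 and 2125.9 in LAG-1 a, b, c and e. Its focus ratios of 0.886, 0.882, 0.867 and 0.874 were also the highest on average of the 120, and its 4 centres lay within 21 bp. All 4 libraries thus placed a compact, strong peak at the same point.

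Next in rank was chromosome I from 10588173 to 10588504, with normalized tag counts of 881.8, 1484.8, 681.4 and 2390.7. Its focus ratios were 0.838, 0.830, 0.827 and 0.867, and its centres lay within 13 bp. This region held no control peak, but the neighbouring region from 10589152 to 10589521 held control peaks of 1518.8 tags per 10 M in Flag control b, 5525.8 in Myc control a and 511.2 in Myc control c. LAG-1 b alone of the LAG-1 lists had a peak there, at 1381.4. All of these neighbouring peaks were broad, with focus ratios of 0.575 in LAG-1 b and 0.569, 0.572 and 0.632 in the controls.

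Chromosome III from 6344658 to 6345024 followed, with 657.3, 1223.6, 710.8 and 1194.8 tags per 10 M. A pair of regions near the right end of chromosome IV came next. From 16656221 to 16656619 the normalized tag counts were 571.2, 857.1, 345.6 and 1070.9, and from 17278352 to 17278756 they were 538.4, 784.5, 288.6 and 1104. At both regions on IV the libraries stood in the order of their list medians, LAG-1 c lowest and LAG-1 e highest.

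Compact and broad peaks stood side by side among the strongest regions. Chromosome I from 11977817 to 11978147 had normalized tag counts of 419.4, 683.2, 416.9 and 886.2, focus ratios of 0.853, 0.844, 0.849 and 0.874, and centres within 12 bp. Chromosome V from 15184084 to 15184421 had 374.7, 524.3, 294.8 and 846.7 tags per 10 M, and its centres lay within 9 bp. In contrast, chromosome III from 6969813 to 6970195, with 374.2, 388.7, 316.2 and 924.7 tags per 10 M, had focus ratios of only 0.661, 0.665, 0.717 and 0.670. Chromosome II from 13521171 to 13521542, at 365, 414.9, 345.6 and 937.5, was of the same kind, with focus ratios of 0.681, 0.671, 0.785 and 0.704. The last of the 10 strongest was chromosome III from 5172435 to 5172813, at 425.8, 643.3, 209.3 and 816.8.

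High focus was not confined to the 10 strongest regions. Chromosome III from 3630367 to 3630720 had 180.4, 404.9, 155.9 and 571.2 tags per 10 M, with focus ratios of 0.801, 0.853, 0.910 and 0.894. These counts lay above the list median in LAG-1 b, c and e and below it in a. Chromosome V from 15464916 to 15465345 had 285.9, 353.4, 162.1 and 610.7, above the median of every LAG-1 list. Its focus ratios were 0.834, 0.856, 0.864 and 0.873. Both stood among the 5 regions of the 120 with the highest mean focus ratio, beside III from 9793659, I from 11977817 and V from 15184084.

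The region with the strongest peak of the LAG-1 b, c and e lists held control peaks. Chromosome I from 12483530 to 12483989 had LAG-1 normalized tag counts of 1800.3, 2618.2, 1050.2 and 4158.8, with focus ratios of 0.892, 0.895, 0.848 and 0.928. Myc controls a, c and d had 93.5, 262 and 245 there, with focus ratios of 0.673, 0.742 and 0.592. Every LAG-1 library was thus above every control peak at this site in both tag count and focus ratio.

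Other recurrent LAG-1 regions with a peak in 3 controls were also stronger with LAG-1, but not always more compact. Chromosome IV from 4749874 to 4750295 had 591.7, 801.1, 312.6 and 1019.7 tags per 10 M with LAG-1, against 102.9 in Flag control b and 119.8 and 134.2 in Myc controls a and c. Chromosome II from 10563302 to 10563685 had 533, 811.2, 246.7 and 1096.6, against control values of 96.6, 115.3 and 198.1. Chromosome I from 4171976 to 4172477 had 498.5, 589.4, 280.6 and 888.4, against 95.9, 137 and 210.9. Chromosome X from 8036245 to 8036640 had 297.2, 328.2 and 557.4 in LAG-1 a, b and e and no peak in c, against 101.6, 156.6 and 123.6 in the Myc controls. LAG-1 exceeded the controls in tag count at each of these regions, in each library with a peak. Every LAG-1 list median also lay above every control list median. Focus ratios went both ways. On IV they were 0.841 to 0.869 with LAG-1 and 0.692 to 0.767 in the controls, and on II 0.723 to 0.891 and 0.782 to 0.895. At I from 4171976 they were 0.645 to 0.694 with LAG-1 and 0.664 to 0.831 in the controls, and on X 0.620 to 0.698 and 0.701 to 0.930.

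Not every strong LAG-1 peak was of this kind. Of the 10 strongest peaks of each list, 7, 8, 8 and 8 lay in regions of all 4 LAG-1 libraries, and 6, 5, 5 and 5 overlapped a control peak. The strongest peak in any LAG-1 list, 10194 tags per 10 M on chromosome III from 9096248 to 9096860, appeared in LAG-1 a and no other LAG-1 list. The same region held peaks in Flag control b at 120.8, Myc control c at 338.7 and Myc control d at 933.3. Chromosome I from 2850836 to 2851162 had 4607 in LAG-1 a alone, with a focus ratio of 0.958, and 8601 in Flag control a, with a focus ratio of 0.990. Chromosome II from 8418908 to 8419212 had 543 in LAG-1 c alone, 733 in Flag control c and 693 in Myc control d, with focus ratios of 0.620, 0.550 and 0.587. These single-library peaks were chosen after their values were seen.

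The LAG-1 b peak on chromosome I from 10589152, described above, was also a single-library peak among the 10 strongest and held control peaks. The remaining single-library peaks among the 10 strongest held none. Chromosome II from 8421232 to 8421522 had 492.6 in LAG-1 c, with a focus ratio of 0.60, close to the preceding region. Chromosome IV from 17281202 to 17281532 had 1143.5 in LAG-1 e, with a focus ratio of 0.689, close to the recurrent region from 17278352.

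Spacing between peaks was set against random placement at the same number of peaks per chromosome. The median ratio of nearest-neighbour distance to that of even random placement was 0.936, 0.970, 1.05 and 0.945 in LAG-1 a, b, c and e. Flag controls had 0.679, 1.55 and 1.27 and Myc controls 1.21, 1.14 and 0.939. The LAG-1 values thus lay close to random placement and inside the wide range of the controls. The log2 difference was -0.17, with exact permutation p = 0.448 and adjusted p = 0.537. It was -0.62 among peaks at least 6-fold over input (exact permutation p = 0.0476, adjusted p = 0.143) and -0.30 among the 45 best peaks of each list. Without Flag control a it was -0.30 and without Flag control b -0.07.

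At short range, LAG-1 lists held more close neighbours than random placement gives once the caller's minimum distance is allowed for. Peaks with another within 2 kb made up 3.96% of LAG-1 a against 1.44% by random placement, 5.48% against 4.21% in b, 3.50% against 3.23% in c and 10.5% against 5.28% in e. Controls went both ways, from 0% against 0.392% in Flag control a and 21.4% against 24.4% in Myc control a to 15.6% against 0.170% in Flag control b. At 5 kb the LAG-1 lists were no longer all on one side, with 6.93% against 4.57% in a, 10.9% against 12.8% in b, 7.83% against 9.70% in c and 18.3% against 16.1% in e. The allowance for minimum distance was chosen after seeing the data, and these shares were not tested.

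Recurrent regions were close to random spacing too. The 530 regions in at least 3 LAG-1 libraries had a median nearest distance of 54.2 kb, against 58.3 kb by random placement, and 20 of them (3.77% against 2.24%) had another within 2 kb. For the 372 without a control peak the 2 kb shares were 1.61% and 1.60%. Among the 158 recurrent regions with a control peak, 8 (5.06% against 0.675%) had another of the same kind within 2 kb. At wider range the order of these groups was the other way. The median nearest distance was 67.6 kb against 81.9 kb by random placement for the regions without a control peak, and 222 kb against 201 kb for those with one, and neither difference was tested.

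**Figure D4:**
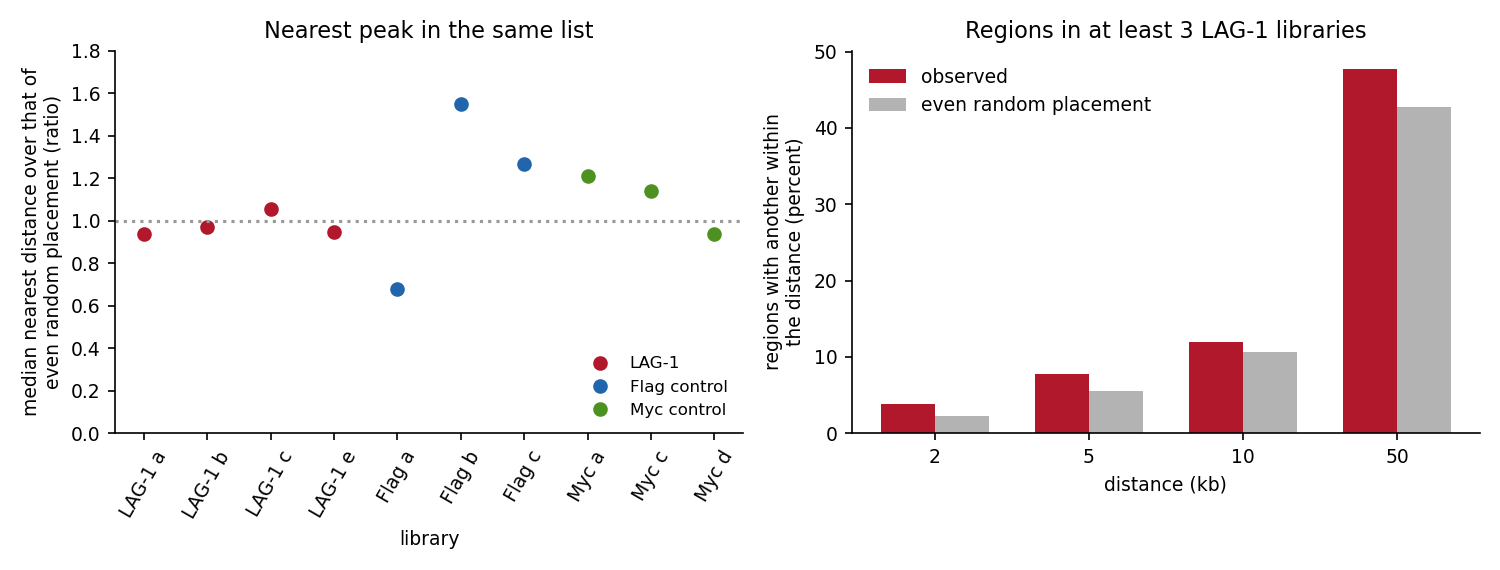
Left, median nearest-neighbour distance in each list divided by that of even random placement (ratio; the dotted line at 1 marks random placement). Right, percent of the 530 regions in at least 3 LAG-1 libraries that had another such region within 2, 5, 10 and 50 kb, observed (red) and by even random placement (grey). LAG-1 lists lie at 0.936 to 1.05, controls at 0.679 to 1.55, and the observed bars are slightly above the grey ones, with 3.77% against 2.24% at 2 kb.

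Chains were formed from regions in at least 2 LAG-1 libraries whose neighbouring centres lay at most 10 kb apart. Of 1222 regions, 296 (24.2%) were chained, against 22.1% with another region in that distance by random placement, and they formed 135 chains of which 21 held 3 or more regions. The longest chain held 6 regions over 23.4 kb on chromosome V from 6224440 to 6247838, with no control peak. Only its region from 6246368 was found in all 4 libraries, with normalized tag counts of 264.9, 413.4, 163 and 357.7. The other 5 were each found in LAG-1 b and e alone, at 225.9 to 297 in b and 216.8 to 321.4 in e.

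Both chains of 4 regions mixed strong and weak recurrence. On chromosome X from 16604449 to 16619508, over 15.06 kb, 1 region was found in all 4 libraries, 3 in 2 libraries, and 2 regions held a control peak. On chromosome II from 13817378 to 13836106, over 18.7 kb, 1 region was found in all 4 libraries and 1 held a control peak. The shortest chains of 3 regions lay on chromosome I from 9619818 to 9626258, over 6.44 kb, and on chromosome IV from 4720560 to 4728310, over 7.75 kb. The chain on IV was the most recurrent of the 5, with 2 regions in all 4 libraries and 1 in 3.

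In C. elegans the autosome arms recombine more and hold more repeats and fewer conserved genes than the centres. The centre was taken as the stretch from 25% to 75% of chromosome length. It held 49.7%, 54.9%, 43.95% and 55.5% of the autosomal peaks of LAG-1 a, b, c and e. Flag controls had 27.03%, 69.2% and 41.4% there, and Myc controls 44.7%, 49.6% and 31.4%. LAG-1 averaged 51.02% ± 5.40 (SD, n = 4) and controls 43.9% ± 14.98 (n = 6), and the LAG-1 values lay inside the range of the controls. The difference of 7.10 points had an exact permutation p of 0.419, or 0.537 adjusted. It was 12.2 points without Flag control b (adjusted p = 0.0952, exact test) and 3.73 without Flag control a. Among the 45 best peaks of each list it was 10.7 points (exact permutation p = 0.0190, adjusted p = 0.0571), and among peaks at least 6-fold over input 1.40 points.

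Position along the chromosome moved with peak strength in LAG-1 and control lists alike. From the lowest to the highest quartile of normalized tag count, the centre share went from 31.7% to 66.1% in LAG-1 a, from 37.7% to 68.6% in b, from 13.6% to 69.96% in c and from 43.98% to 62.6% in e. In the Flag controls it went from 14.3% to 61.5%, from 44.4% to 100% and from 10.5% to 65.0%. In the Myc controls it went from 23.7% to 62.0%, from 35.1% to 60.1% and from 25.9% to 55.6%. Strong peaks were thus the more central ones in 4 of 4 LAG-1 lists and 6 of 6 control lists. The mean gradient was 35.1 ± 15.7 points (SD, n = 4) for LAG-1 and 41.7 ± 12.8 (n = 6) for controls, a difference of -6.64 points with exact permutation p = 0.486 and adjusted p = 0.648. Leaving out 1 library moved the difference between -13.7 points (without LAG-1 c) and -1.17 points (without LAG-1 e). The gradient was chosen as a measure after seeing the data.

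**Figure D5:**
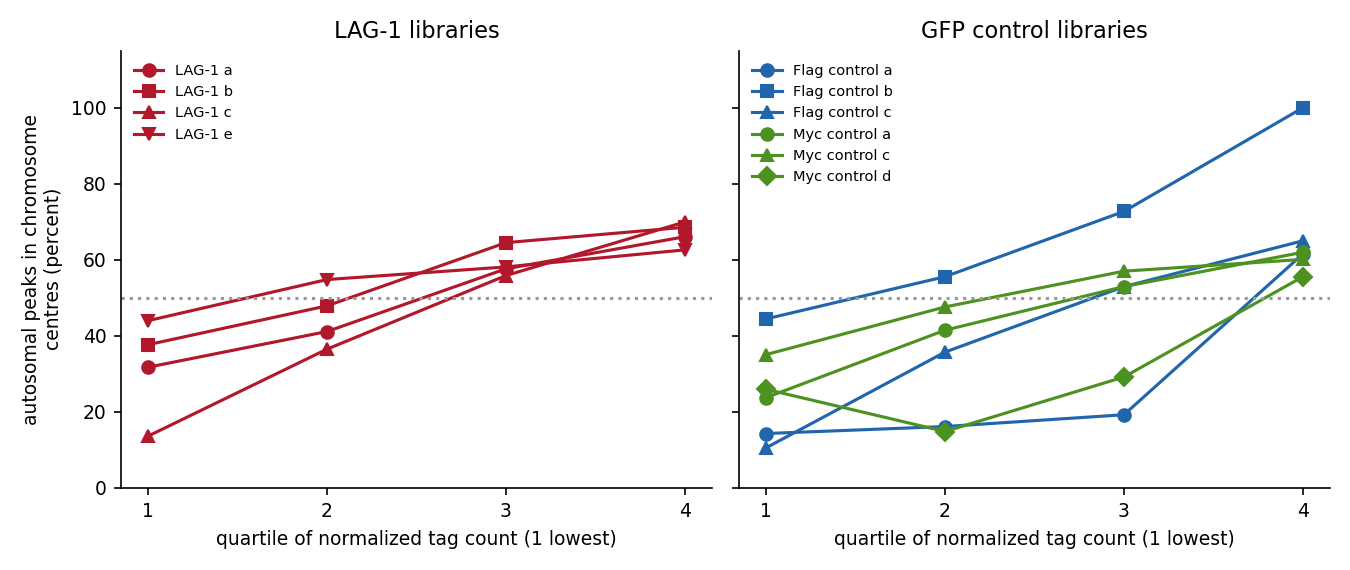
Percent of autosomal peaks lying in chromosome centres (25% to 75% of length) by quartile of normalized tag count within each list, 1 being the lowest, for LAG-1 (left) and GFP controls (right). Each line is 1 library and the dotted line marks 50%. All lines end higher than they start, at 62.6% to 69.96% for LAG-1 and 55.6% to 100% for controls.

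Recurrence, unlike strength, did not go with a central position in the same way in all LAG-1 libraries. Recurrent and single-library peaks lay in centres at 50.8% and 56.3% in LAG-1 a, 51.8% and 55.9% in b, 57.9% and 35.9% in c, and 51.5% and 57.4% in e. LAG-1 c thus went against the other libraries. The mean difference was 1.61 points with all 4 libraries (exact permutation p = 1) and -5.16 points without LAG-1 c.

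Recurrent LAG-1 regions without a control peak were spread unevenly over the chromosomes. Their density was 5.12 per Mb on I, 3.86 on II, 4.94 on III, 4.23 on IV, 2.53 on V and 2.31 on X. The share in the centre was 46.8% on I, 45.8% on II, 48.5% on III, 54.1% on IV, 66.0% on V and 39.02% on X. Chromosome V was thus low in density and high in its central share, and X was low in both. Regions in at least 2 controls were also least dense on X, at 2.31 per Mb, but had 2.92 per Mb on V. Their central share was 41.0% on V and 53.7% on X. Recurrent LAG-1 regions with a control peak were least dense on V, at 0.860 per Mb, but not low on X, at 1.75. The low density on X was thus shared with controls. Over all regions in at least 3 LAG-1 libraries, with or without a control peak, X had 4.06 per Mb and V 3.39. Chromosomes I to IV had 5.30 to 7.19. The X share of peaks moved from the bottom to the top quartile of normalized tag count by -7.00, -7.00, -1.45 and -21.1 points in LAG-1 a, b, c and e, so strong LAG-1 peaks were less frequently on X in 4 of 4 libraries. In the 6 controls the change ran from -15.9 to 6.25 points. The difference between groups was -8.50 points, with exact permutation p = 0.181 and adjusted p = 0.362, and was likewise chosen after seeing the data. It was -4.51 points without LAG-1 e and -11.6 without Flag control b.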

How the data were processed

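ChIP-seq peak lists of 4 LAG-1 and 6 control immunoprecipitates were analysed; the Notch lists entered only the series total. The submitters' processing notes name CASAVA 1.8, Bowtie, HOMER and the ce10 build, with no Bowtie or HOMER version given in the sources used here. HOMER, per the file headers, called the peaks of each library against its own input at 4-fold over input and over the local 10 kb. The normalized tag count is a deposited signal per 10 M tags, and total tags are deposited counts or, in LAG-1 a and b, a scaled signal. The focus ratio is a fraction and the peak score a score from the authors' caller. Folds over input and local background and the clonal fold are deposited ratios, and the p-values of single peaks, also deposited, were not used. No sample column was left unmapped.

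Peaks overlapping by at least 1 bp were merged. The highest peak end in the 10 lists stood for chromosome length, and random placement used the closed form for points placed evenly at random. Library medians were tested by permuting library labels, exact and two-sided (210 splits for 4 against 6), contrasts within libraries by exact sign flips, and regions by Fisher's exact test, all with Benjamini-Hochberg adjustment. Python 3.11.15, numpy 2.4.6, scipy 1.17.1, pandas 2.3.3 and matplotlib 3.10.9 were used, and the statistics were tested on simulated data. Members, measures and lists were chosen with earlier results of these data known. Named regions were, by rule, the 10 strongest by mean rank and the 5 most focused of those in all 4 LAG-1 libraries and no control, the 5 longest chains, and the 5 regions in at least 3 LAG-1 libraries with most control peaks. Sequences and genes at the regions were not analysed here. Inputs enter only through the authors' calling. Peak depth per library limits how weak a site can be called, and a missing peak is not evidence of no binding. Alternatives were a fold of at least 6, equal numbers of best peaks, other centre limits, other overlaps, each control group alone, a replicate block and leaving out each library. A common Poisson threshold for all lists was added after seeing the data.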

Additional observations from a re-analysis of the deposited data

Results flagged for a closer look

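In 50 sets of 4 to 6 values checked for a value far from the others, 5 were found, and chance gives about 1 in 20. Among the controls, Flag control b had the highest log2 ratio of the 90th to the 50th percentile of normalized tag count, 1.89. At chromosome V from 15184084, the focus ratio of 0.794 in LAG-1 c lay far below the other 3 libraries (0.865 to 0.878). LAG-1 e held the high value at chromosome II from 13521171, 937.5 tags per 10 M, where the others had 345.6 to 414.9. It also held the high value at chromosome III from 6969813, 924.7 against 316.2 to 388.7. At that last region the focus ratio of 0.717 in LAG-1 c lay above the other 3 (0.661 to 0.670). The change of clonal fold from weak to strong peaks differed between LAG-1 and controls by -0.267, with an exact permutation adjusted p of 0.0381, a measure chosen after seeing the data.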

How the results depend on the processing

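Of 214 recomputed values, 183 were labelled as the same, though several moved by over 1.5 times. For tested values the label meant the same direction and side of the threshold, and for counts of regions a change of at most 1.5 times. The contrasts within libraries could not change side, since their smallest exact sign-flip p is 0.125, or 0.25 with a library left out. The count of 372 regions was 216 at a fold over input of at least 6, 21 with equal numbers of best peaks, 120 in all 4 and 937 in at least 2 LAG-1 libraries; leaving out 1 library gave 125 to 444, with 195, 125 and 127 without LAG-1 a, b and e. The log2 ratio of the 90th to the 50th percentile turned to -0.44 at 6-fold, -0.58 with equal numbers of best peaks, -0.10 against Flag controls alone and -0.18 under the replicate block; leaving out 1 library gave 0.0744 to 0.41. Under the replicate block, which could be fitted on letters a, b and c only (smallest exact p 0.25), the centre share turned to -0.697 points. Letters were not taken as pairs in the main tests. Same-lettered libraries correlated at 0.00433 to 0.125 in their deviations. Libraries of unlike letters were not compared, so these values cannot show whether letters mark pairs. Spacing turned to 0.12 with the geometric mean distance. With the strictest Poisson threshold of the 10 lists applied to all, the log10 normalized tag count difference was 0.311. The focus difference was then -0.0428 and the centre share difference 7.03 points. The normalized tag count difference passed the threshold without Flag control b (0.300) or c (0.327), over a range of 0.282 to 0.356, and the focus ratio without Flag control c, over -0.0494 to -0.0342 (adjusted p = 0.0476, exact test), while the focus difference shrank to -0.00883 with equal numbers of best peaks and -0.0193 at 6-fold. The clonal difference missed it after adjustment with any 1 library left out, from -0.303 to -0.221, and was -0.193 without Myc controls a and c. Without LAG-1 c, recurrent minus single-library centre share was -5.16 (range to 4.11), and with minus without a control peak -0.0103 (range to 4.86) points. The focus difference between peaks with and without a control peak turned to 0.0411 against Flag controls alone. The cause was not tested for these changes.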
